A study of Homo sapiens with 24 samples.

Results

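The 10 genes described here are the Notch receptors NOTCH1, NOTCH2 and NOTCH3, the ligands JAG1, JAG2 and DLL1, and the targets HES1, HEY1, HEYL and NRARP. A region of H3K27ac (acetylated lysine 27 of histone H3, a mark of active promoters and enhancers) was assigned to a gene when the authors' annotation named that gene as overlapping the region or as flanking it within 10000 bp. In all, 94 of the 171345 regions in 6 deposited tables named a member. Of the 10 genes, 8 were named at least once, 6 of them by overlap, while NOTCH3 and NRARP were named only as flanking genes and DLL1 and HEYL by no region. HES1, JAG1 and NOTCH1 held most of the mark and most of the change.

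The series holds 24 ChIP-seq libraries (H3K27ac and input) in 8 groups of 3. They come from MCF10A (10A), a non-tumorigenic human mammary epithelial line, and MCFDCIS (DCIS), a line of the same lineage that models ductal carcinoma in situ. In each line, lentiviral hairpins targeted either ANCO1, the product of ANKRD11 (shANCO1), or GFP as a control (shCTRL). Each of these 4 cell populations was sequenced after immunoprecipitation of H3K27ac and as input chromatin. Both arms of each line were infected and drug-selected stable lines. The shANCO1 arm was given as the line with hairpin #3 where the H3K27ac comparisons are described, so it stands for 1 hairpin, and nothing says that the 3 libraries of a group came from separate cultures. Among markers of the cell type, KRT5, TP63, ITGB4, CDH1, KRT8 and KRT18 carried the mark in all 4 immunoprecipitated groups, KRT14 in none, and KRT17 in the DCIS groups; Of the luminal hormone-responsive markers, ESR1 and GATA3 were marked in all 4 groups, FOXA1 in both shANCO1 groups and neither shCTRL group, and PGR in none. Of the fibroblast, leukocyte and endothelial markers, PECAM1 was marked in all 4 groups and PDGFRB in 10A shANCO1, whereas COL1A1, COL1A2, PTPRC, CD3E and CDH5 were marked in none; the part of these differences in the results was not tested.

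In Notch signalling, a ligand of the Jagged or Delta-like type on one cell binds a Notch receptor on its neighbour, the receptor is cut by proteases, and its intracellular part moves to the nucleus. There it joins the DNA-binding protein RBPJ and the coactivators of the MAML family and switches on genes such as HES1 and HEY1, which encode repressors of transcription. In the mammary gland the pathway is known for its part in the choice between luminal and basal fates and in the maintenance of progenitor cells.

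The regions that carry the results held short sequences that are printed here so that the sites can be seen beside their values. RBPJ is known to bind GTGGGAA or the shorter core TGGGAA, and AP-1, the factor family of FOS and JUN, binds TGACTCA. Both strands were searched, the shorter core lies inside the longer RBPJ word, and a match is a description of letters, not a binding site. Of 35116 RefSeq promoters (GRCh38.p14, 250 bases before to 50 after the start site), 6.25% held GTGGGAA, 24.0% TGGGAA and 4.95% TGACTCA. A promoter sequence was found for 8 of the 10 members. The promoters of HES1 and HEYL held GTGGGAA, and TGACTCA was in none of the 8. The HES1 promoter is shown because it holds 2 TGGGAA words, starting at -84 and -70, in capitals, in the 150 bases before the start site (chr3:194135998-194136147, plus strand).
HES1 promoter: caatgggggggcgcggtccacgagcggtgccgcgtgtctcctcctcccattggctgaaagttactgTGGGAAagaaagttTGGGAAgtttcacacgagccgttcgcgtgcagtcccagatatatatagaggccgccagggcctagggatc

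The stretches below are a selection from regions that changed in at least 1 line. They are read in the direction of the gene from the GRCh38 genome. The RBPJ or AP-1 word is in capitals (the reverse complement where the word lies on the other strand). For HES1 they are an AP-1 word at -0.812 kb from the start site (chr3:194135324-194135354) and an RBPJ and an AP-1 word 5.891 kb (chr3:194142027-194142057) and 5.954 kb (chr3:194142090-194142120) after it. The last 2 lie where the rising region of 10A and the rising region of DCIS overlap. For NOTCH1, on the minus strand, they are RBPJ words at -4.063 kb (chr9:136550093-136550123) and -4.807 kb (chr9:136550837-136550867) and an AP-1 word at -5.49 kb (chr9:136551520-136551550). For JAG1, also on the minus strand, they are intronic AP-1 words 2.32 kb (chr20:10671661-10671691) and 6.662 kb (chr20:10667319-10667349) after the start. For NOTCH3 it is 1 of 2 AP-1 words upstream of the gene (chr19:15210443-15210473, minus strand). Not printed are RBPJ words 4.091 and 8.618 kb and an AP-1 word 7.292 kb after the JAG1 start, in regions that rose in 10A. RBPJ words 3.703 and 5.049 kb after the HES1 start, in the rising 10A region, were also left out.
HES1 upstream AP-1: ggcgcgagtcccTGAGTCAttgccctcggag
HES1 downstream RBPJ: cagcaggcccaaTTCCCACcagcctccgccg
HES1 downstream AP-1: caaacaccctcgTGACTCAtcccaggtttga
NOTCH1 upstream RBPJ, nearer: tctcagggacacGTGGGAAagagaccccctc
NOTCH1 upstream RBPJ, farther: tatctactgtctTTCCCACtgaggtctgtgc
NOTCH1 upstream AP-1: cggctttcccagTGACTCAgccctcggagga
JAG1 intron AP-1, nearer: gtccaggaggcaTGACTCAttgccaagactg
JAG1 intron AP-1, farther: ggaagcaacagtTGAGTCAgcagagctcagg
NOTCH3 upstream AP-1: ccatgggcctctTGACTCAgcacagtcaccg

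Among the tested member regions, 9 of 23 held TGACTCA in 10A and 9 of 28 in DCIS. Among stretches of the same length centred on all tested regions of a line, the share that held it averaged 40.2% in 10A and 29.0% in DCIS. The member shares were 39.1% and 32.1%. GTGGGAA lay in 10 of 23 regions in 10A (same-length average 28.8%) and in 8 of 28 in DCIS (23.0%). Neither difference was tested. Both words also lay in 10A regions that were not called. For GTGGGAA these included sites 1.028 kb after the HES1 start, 19.282, 38.43 and 40.98 kb after the JAG1 start and 0.413 kb after the NOTCH2 start. A further one lay at -0.829 kb from the NOTCH1 start. For TGACTCA they included sites 13.121 and 38.361 kb after the JAG1 start. Whether the words go with the calls was not tested.

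The first question was whether loss of ANCO1 changed H3K27ac at these genes. In 10A, 9 of the 23 member regions rose in shANCO1 over shCTRL at a deposited FDR under 0.05, named NOTCH1, NOTCH3, JAG1, JAG2 or HES1, and none fell. In DCIS, 2 of 28 rose, 1 upstream of NOTCH1 and 1 downstream of HES1, and none fell. The strongest changes were a log2 fold change of 1.47 upstream of NOTCH1 in DCIS and of 1.36 in a flank of NOTCH1 in 10A. Each value is the authors' log2 fold change of 1 representative window of the region, so it carries no error and no value per library, and the FDR was computed by the authors' csaw test over all regions of a table.

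These counts were near or below those of the whole tables. Of all 50284 tested regions in 10A, 43.6% rose and 0.225% fell, against 39.1% and 0 of 23 for the members. Of all 44790 in DCIS, 23.6% rose and 4.86% fell, against 7.14% and 0 of 28. Among regions with a promoter code in the authors' annotation, which can refer to any transcript of a gene, 8 of 17 member regions rose in 10A (background 50.8%) and 1 of 22 in DCIS (background 16.3%). Counted by gene, 5 of 7 members with a region had a rising one in 10A (71.4%, background 74.3%) and 2 of 8 in DCIS (25%, background 32.2%). By windows, 99 of 367 member windows rose in 10A (26.98%, all windows 36.6%) and 32 of 323 in DCIS (9.91%, all windows 17.5%). No member region was down even at an unadjusted p under 0.05, in either line, while 10 of 23 in 10A and 7 of 28 in DCIS were up at that level, beside 52.3% and 30.0% of all regions.

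The zero of the fold change depends on a normalization that is not stated, and most regions of the series lay above it. The median log2 fold change of all regions was 0.76 in 10A and 0.52 in DCIS. The member medians were 0.67 in 10A, where 10 of 23 regions exceeded the table median, and 0.72 in DCIS, where 21 of 28 did. Read as direction alone, 22 of 23 member regions in 10A and 23 of 28 in DCIS were above 0, beside 91.8% and 66.9% of all regions. By role in DCIS, 6 of 9 receptor regions, 8 of 9 ligand regions and 7 of 10 target regions lay above the table median, although 1, 0 and 1 of them passed the FDR.

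**Figure D1:**
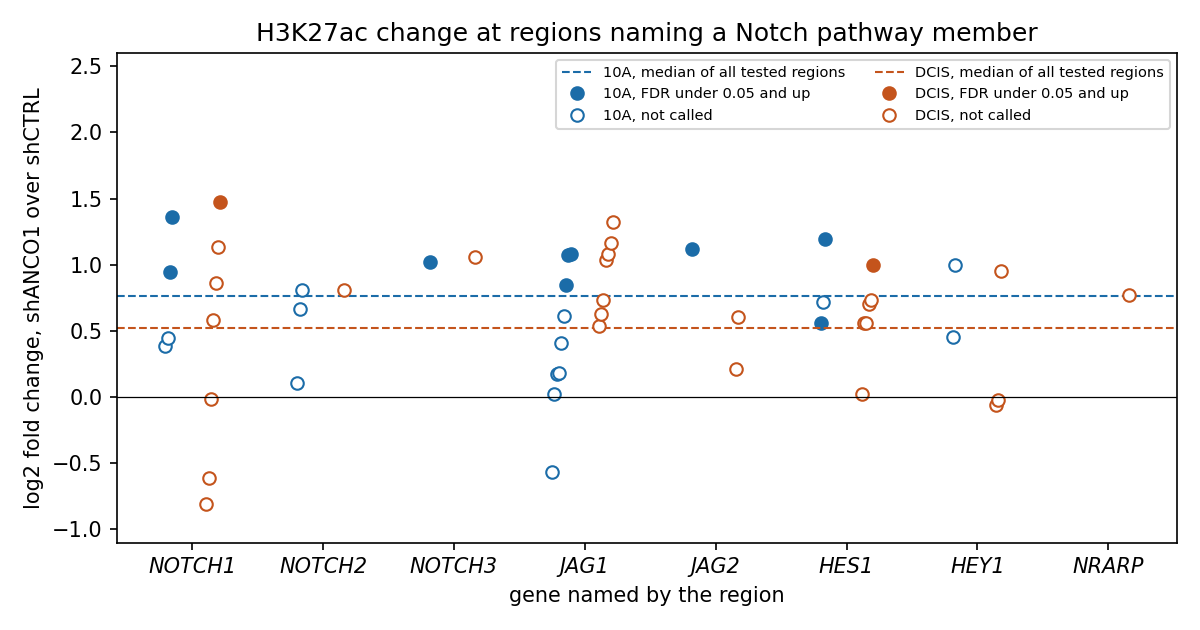
Log2 fold change of H3K27ac (shANCO1 over shCTRL, vertical axis) at each region that names a member (horizontal axis, by gene), in 10A (blue) and DCIS (orange); filled points passed an FDR of 0.05 and dashed lines are the medians of all regions. In 10A the 9 filled points lie between 0.56 and 1.36, and in DCIS the 2 filled points are at 1.47 for NOTCH1 and 0.99 for HES1.

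Among the receptors, NOTCH1 had the largest changes. NOTCH1 (chr9:136494433-136546048, minus strand) encodes a receptor that is a frequent target of mutation in cancer. In 10A, a region over its first exon and intron (0.148 to 1.247 kb after the start site) rose by a log2 fold change of 0.94 (FDR 0.0287, 9 of 10 windows up), which was 0.18 above the table median. The region just before the start site (-1.952 to -0.253 kb) did not pass the test in either line, with 0.39 in 10A (FDR 0.930) and -0.61 in DCIS (FDR 0.741).

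Farther upstream the lines gave different calls. The region from -6.052 to -3.553 kb in DCIS (chr9:136549601-136552100) had a log2 fold change of 1.47 (2.78-fold, FDR 0.000115, 20 of 24 windows up), 0.95 above the table median and higher than 82.6% of all regions. The 10A region at nearly the same place, -6.152 to -3.753 kb, had 0.45 (FDR 0.270, 0 of 22 windows up). Both regions hold the 2 RBPJ words and the AP-1 word of NOTCH1 printed above. The difference between the lines was not tested, since the tables hold no value per library. The other 5 NOTCH1 regions of DCIS, apart from the one before the start site, ranged from -0.81 to 1.14 and did not pass.

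A region near SEC16A, 60.948 to 64.047 kb after the NOTCH1 start site and beyond the end of the gene, had the largest value of the members in 10A at 1.36 (FDR 0.000826, 21 of 27 windows up). NOTCH1 is named there only as a flanking gene, so the region may belong to its neighbour, and in DCIS the value was 0.58 (FDR 0.970).

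The enrichment over input gave the marking of NOTCH1 in each group. Upstream of NOTCH1, from -5.052 to -4.153 kb, 10A shANCO1 was enriched by 3.002 on the log2 scale and DCIS shANCO1 by 3.80 (-5.352 to -4.153 kb). Neither shCTRL group had an enriched region listed there. The listed regions had been selected beforehand, so a missing one does not show that the place lacked the mark. Just before the start site, 10A carried 2.43 in shCTRL and 2.93 in shANCO1, and DCIS carried 2.72 and 3.22 at a place farther out, which started at -1.152 kb. In bases, NOTCH1 had 200 bp enriched in 10A shCTRL, 3200 in 10A shANCO1, 200 in DCIS shCTRL and 1500 in DCIS shANCO1. Of the 3200, 1300 were the SEC16A flank, where the other 3 groups also had an enriched region of 300 bp, which named other genes.

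**Figure D2:**
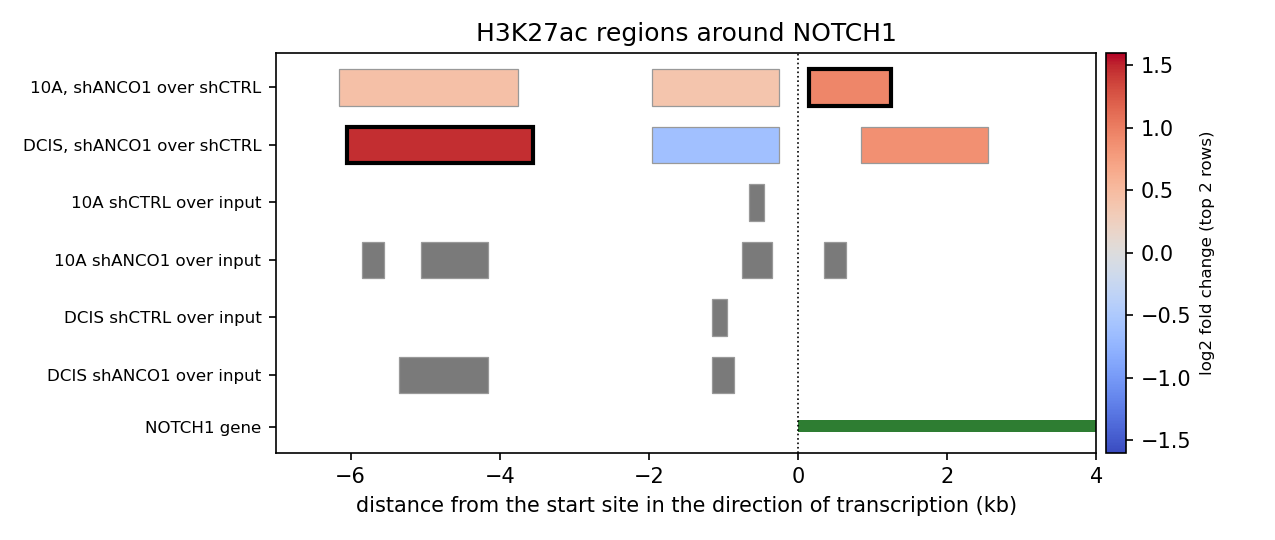
Regions around the NOTCH1 start site, with distance in kb in the direction of transcription on the horizontal axis. The top 2 rows are coloured by log2 fold change of shANCO1 over shCTRL, with a thick outline where the region rose at FDR 0.05, and the grey rows are regions enriched over input in each group; near -5 kb only the shANCO1 groups have grey boxes.

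NOTCH2 and NOTCH3 had few regions. NOTCH2 (chr1:119911553-120069662, minus strand), the receptor with near-identical partial copies on chromosome 1 (the NOTCH2NL genes), had values of 0.10, 0.81 and 0.67 in 10A and of 0.81 in DCIS, none past the FDR (0.0967 at the lowest). Reads over its first exon may be shared with those copies, so the values of 0.67 in 10A and 0.81 in DCIS there are uncertain. An intronic place 81.362 kb from the start was enriched over input in 10A shANCO1 (4.39) and in no other group. NOTCH3 (chr19:15159038-15200995, minus strand), a receptor known from vascular smooth muscle, was named by 1 region at -10.005 to -9.406 kb. It rose in 10A by 1.02 (FDR 0.00427, 5 of 5 windows up) and had 1.06 in DCIS (FDR 0.0945, 3 of 5 windows up). Nearly equal values thus fell on either side of the threshold. Over input the place was enriched in 10A shANCO1 alone (3.09), and the nearest enriched region to NOTCH3 in DCIS was 33.238 kb from the gene in shANCO1 and 33.338 kb in shCTRL.

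Of the ligands, JAG1 had the most regions and the most windows up. JAG1 (chr20:10637684-10673999, minus strand) encodes the Jagged ligand whose loss causes Alagille syndrome. In 10A its start site region (-1.501 to 1.398 kb, chr20:10672601-10675500) rose by 1.08 (2.12-fold, FDR 3.55e-05, 21 of 28 windows up), the lowest FDR of the member regions in either direct comparison. The next region into the first part of the gene (1.299 to 4.298 kb), which holds the nearer AP-1 word printed above, rose by 1.07 (FDR 0.000459, 13 of 29 windows up). An intronic region at 5.399 to 9.398 kb, which holds the farther AP-1 word, rose by 0.85 (FDR 0.0173, 5 of 36 windows up). The 3 values were 0.32, 0.31 and 0.08 above the table median.

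The other 6 JAG1 regions of 10A did not pass, with values from -0.57 to 0.61. The lowest of these lay 45.799 to 47.598 kb after the start site, beyond the end of the gene, and its -0.57 (FDR 0.736) was lower than all but 1.66% of the regions of the table.

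In DCIS none of the 7 JAG1 regions passed the FDR, although all 7 exceeded the table median and 4 were up at an unadjusted p under 0.05. The start site region (-1.401 to 1.298 kb) had 1.03 (FDR 0.105, 2 of 24 windows up), close to the 1.08 of 10A. Regions in the introns had 1.33 (FDR 0.0755), 1.17 (FDR 0.0524, the 1 window up) and 1.08 (FDR 0.0832).

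Over input the JAG1 start site was enriched in all 4 groups. In 10A shCTRL 2 separate regions of 200 and 700 bp had 2.04 and 2.45, whereas in 10A shANCO1 1 region of 3400 bp, from -1.301 to 2.098 kb, had 3.42. In DCIS shCTRL 3 regions had 3.25 to 3.78, and in DCIS shANCO1 2 regions had 4.40 and 6.07, the latter the highest over-input value of any member. The direct comparison of the DCIS start site region did not pass (1.03, FDR 0.105), so these over-input values are not a measured rise. An intronic place at about 2.4 kb was also enriched in all 4 groups, at 2.96 and 3.71 in 10A and at 4.17 and 4.64 in DCIS (shCTRL first). At 6.299 and 8.299 kb only 10A shANCO1 was enriched (3.52 and 2.88), and at 46.099 kb both 10A groups were (5.17 in shCTRL, 4.43 in shANCO1) and no DCIS group.

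**Figure D3:**
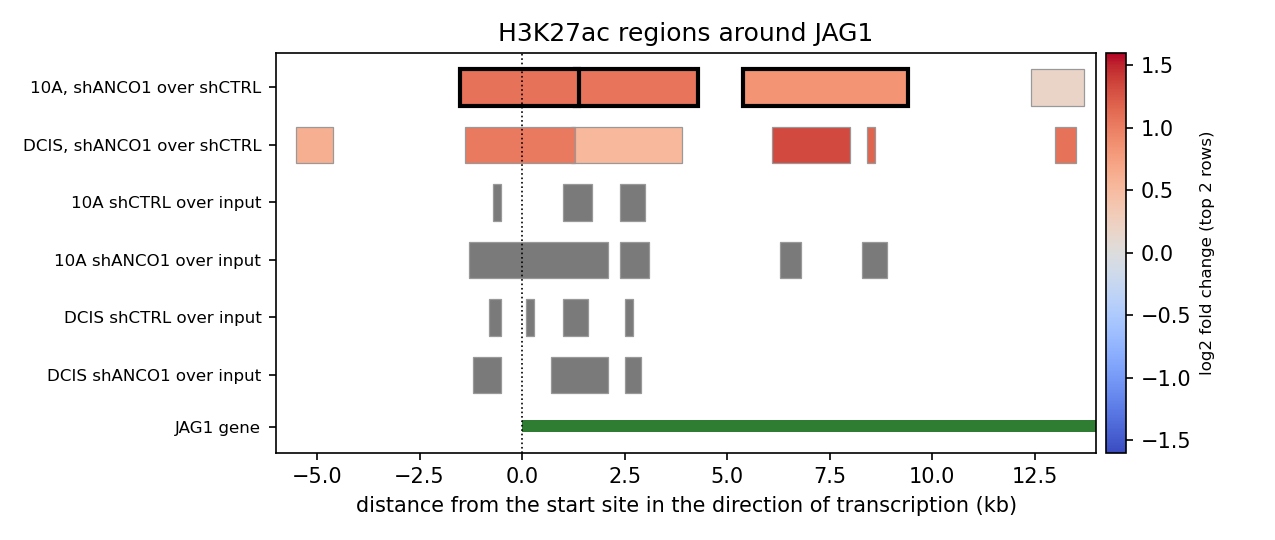
Regions around the JAG1 start site, drawn as distance in kb in the direction of transcription, with log2 fold change (colour) in the top 2 rows, thick outlines for regions that rose at FDR 0.05, and regions enriched over input in grey. In 10A the 3 outlined regions have 1.08, 1.07 and 0.85, and the grey boxes of 10A shCTRL at the start site join into 1 region of 3400 bp in 10A shANCO1.

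JAG2 (chr14:105140995-105168776, minus strand), the second Jagged ligand, had 1 region in 10A, in an intron 1.376 to 2.875 kb after the start site, which rose by 1.12 with the FDR just under the threshold (0.0459, 1 of 13 windows up). No enriched region over input lay there in either 10A group, the nearest being 47.195 kb from the gene in shCTRL and 47.095 kb in shANCO1. In DCIS the same place was enriched in both groups (4.59 in shCTRL and 4.46 in shANCO1) and did not pass the test of change (0.60, FDR 0.763). The gene was thus marked over input in the line in which its change was not called. DLL1 (chr6:170282206-170291078, minus strand), a Delta-like ligand, was named by no region, and the nearest tested region lay 49.406 kb away in 10A and 55.906 kb in DCIS.

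Among the targets, HES1 (chr3:194136148-194138732, plus strand), the repressor that is the usual readout of Notch activity, had the one pair of overlapping regions that rose in both lines. In 10A the region downstream of the gene, 3.553 to 6.952 kb after the start site (chr3:194139701-194143100), passed with 17 of 32 windows up (FDR 0.0358), although its representative window, at 0.56, lay 0.21 below the table median. In DCIS the region from 5.553 to 7.152 kb (chr3:194141701-194143300) rose by 0.99 (FDR 0.0301, 3 of 15 windows up), and it named HES1 only as a flanking gene. Both regions share 1400 bp. Calls are per region, so whether the shared part itself rose was not tested. The RBPJ and AP-1 words near 5.9 kb printed above lie in both regions.

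Upstream of HES1 the calls again differed between the lines. In 10A the region from -2.447 to -0.248 kb, with the upstream AP-1 word, rose by 1.19 (2.29-fold, FDR 0.0264, 6 of 18 windows up). The DCIS regions between -5.247 and -0.348 kb had 0.73, 0.56 and 0.70 and did not pass (FDR 0.976, 0.300 and 0.536). The gene body did not pass in either line, with 0.71 in 10A (FDR 0.245) and 0.03 in DCIS (FDR 0.993). The 150 bases with the 2 TGGGAA words fell between the tested regions, in the gap between the upstream region and the gene body region, in both lines. HES1 lies in the part of chromosome 3 from 80 Mb to its end, where 43.3% of regions rose in 10A and 40.5% in DCIS. The latter share was above the 23.6% of the whole table. Copy number was not measured, so its part in the DCIS values was not tested.

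Over input the downstream HES1 place was enriched in all 4 groups. It had 4.58 in 10A shCTRL over 1100 bp and 4.14 in 10A shANCO1 over 2600 bp. In DCIS its 2 regions had 4.28 and 4.24 in shCTRL and 4.33 and 3.77 in shANCO1, so the over-input value of the farther one was not higher in shANCO1, while the direct comparison gave 0.99. The comparisons use the same shANCO1 libraries, and each rests on a representative window and a scaling of its own. The gene body was enriched in DCIS shCTRL (2.84 over 1300 bp), in DCIS shANCO1 (5.13 over 900 bp) and in 10A shANCO1 (2.73 and 2.62 over 200 and 400 bp), but in no region of 10A shCTRL. In DCIS the direct comparison gave 0.03 there (FDR 0.993, 0 of 26 windows up), so the over-input values of 2.84 and 5.13 are not a measured rise. In bases HES1 had 1100 bp enriched in 10A shCTRL, 3600 in 10A shANCO1 and 3700 in each DCIS group.

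**Figure D4:**
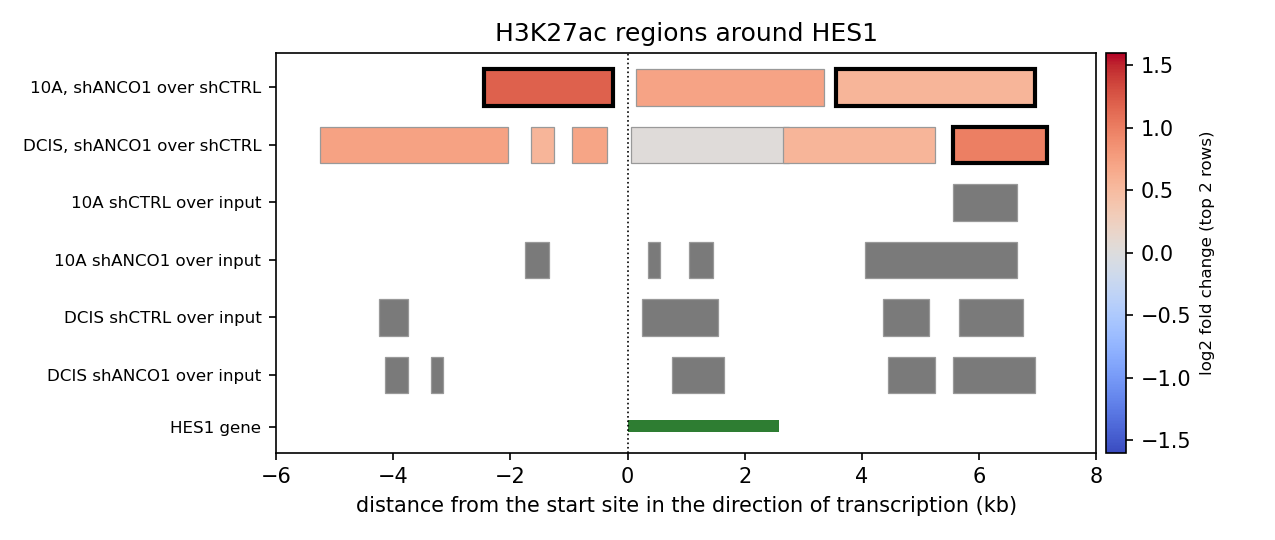
Regions around HES1, drawn as distance in kb from the start site, with log2 fold change of shANCO1 over shCTRL (colour) in the top 2 rows, thick outlines where a region rose at FDR 0.05, and regions enriched over input in grey. The outlined regions overlap between 5.553 and 6.952 kb, and 10A shCTRL has a grey box only there.

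HEY1, the HES-related repressor of vascular and cardiac development, was tested and not called. Its regions had 0.99 (FDR 0.0610) and 0.46 (FDR 0.279) in 10A, and 0.95 (FDR 0.301), -0.06 (FDR 0.975, at the start site) and -0.03 (FDR 0.994) in DCIS. No group had an enriched region nearer than 15.934 kb to the gene. NRARP, a feedback inhibitor that acts on the Notch nuclear complex, was named only by a DCIS region 8.53 kb upstream with 0.77 (FDR 0.916), and its nearest enriched region in any group was 21.231 kb from the gene. HEYL, the third HEY-type repressor, was named by no region. The tested region nearest to it lay 37.058 kb away in 10A and 16.835 kb away in DCIS.

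Set side by side, 23 pairs of overlapping member regions from the 2 lines could be compared. One pair rose in both lines (HES1, downstream), 13 rose in 10A alone, 1 in DCIS alone (NOTCH1, upstream) and 8 in neither. Over all 33865 overlapping pairs of the tables, 16.7% rose in both lines, 37.0% in 10A alone, 12.2% in DCIS alone and 34.1% in neither, against member shares of 4.35%, 56.5%, 4.35% and 34.8%. Several pairs share a region, so the pairs are not independent, and at none was the difference between the lines itself tested.

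The second question was where the members carried the mark at all. Merged over the 4 groups, regions enriched over input fell at 19 places in 6 genes: 6 at NOTCH1, 5 each at JAG1 and HES1, and 1 each at JAG2, NOTCH2 and NOTCH3. Of these, 4 were enriched in all 4 groups (2 at JAG1, 1 at HES1 and the SEC16A flank of NOTCH1), 9 in shANCO1 groups alone and none in shCTRL groups alone. Places were enriched in 10A in 15 cases and in DCIS in 10. The same tallies over all enriched places of the series were not made, so whether these counts set the members apart is not known. The number of member regions was 6 in 10A shCTRL and 16 in 10A shANCO1, spanning 3400 and 13100 bp, beside 15490 and 28607 regions in the whole tables. In DCIS it was 10 in shCTRL and 11 in shANCO1, beside 15482 and 16692. How many regions a table holds can depend on depth and scaling, which are unknown, and their part in these counts was not tested. HEY1, NRARP, DLL1 and HEYL had no enriched region listed in any group. Since the listed regions had been selected beforehand, a gene or place without one was not shown to be unmarked.

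Of the 9 member regions that rose in 10A, 8 overlapped a region enriched over input in 10A shANCO1 and 4 one in 10A shCTRL; the remaining one, at JAG2, overlapped neither. Both DCIS regions that rose overlapped one in DCIS shANCO1, and the one at HES1 also one in DCIS shCTRL. Regions that were not called overlapped an enriched shANCO1 region in 5 of 14 cases in 10A and in 7 of 26 in DCIS. The same shANCO1 libraries enter both comparisons, so this overlap is not independent of the calls. The same shares over all regions of each line were not computed, so whether the members differ in this overlap is not known.

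**Figure D5:**
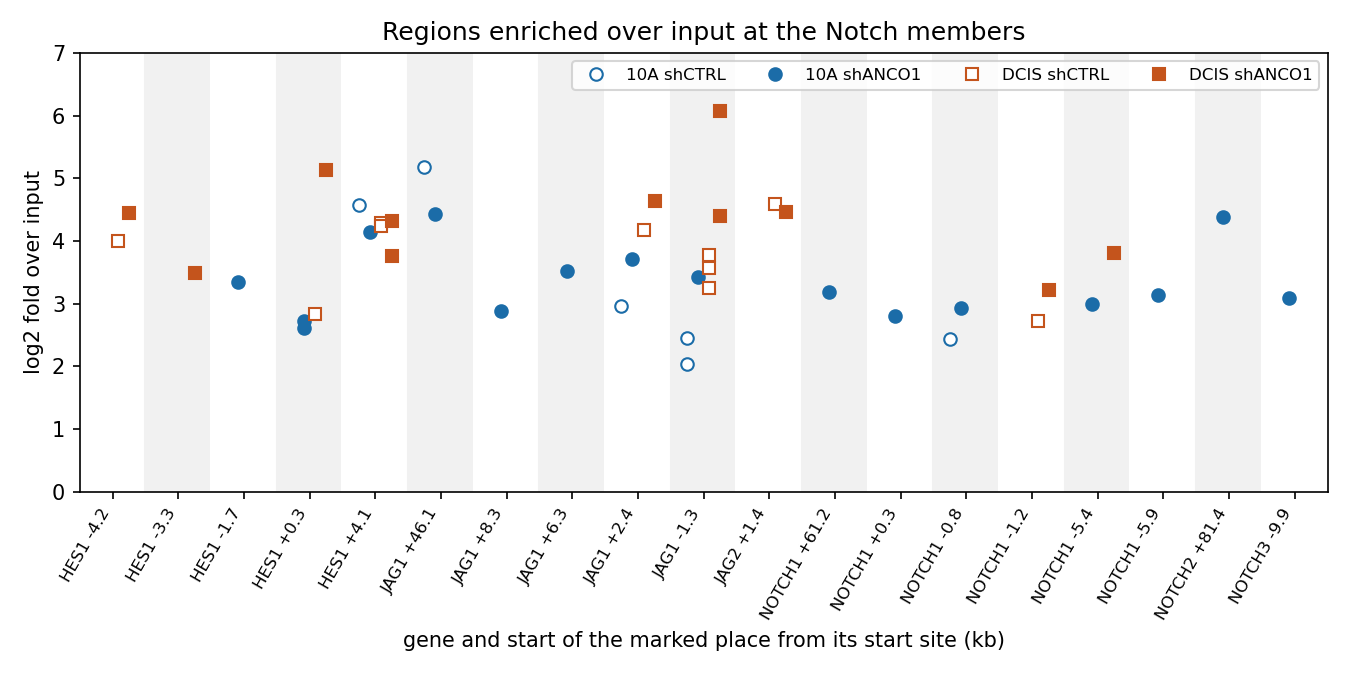
Log2 fold over input (vertical axis) of each enriched region that names a member, at the 19 marked places (horizontal axis, gene and start of the place in kb from the start site), with 10A as circles, DCIS as squares, shCTRL open and shANCO1 filled. Values run from 2.04 to 6.07, and 10 places show filled points alone; at NOTCH1 +61.2 the regions of the other groups name other genes and are not drawn.

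A wider list of 62 other Notch pathway genes, chosen with earlier results known, gives the surroundings of the members. In 10A, 57 of them had a region and 49 a rising one (86.0%, against 74.3% of all genes), with 120 of 262 regions up (45.8%, background 43.6%), none down and a median log2 fold change of 0.81. In DCIS 55 had a region and 19 a rising one (34.5%, background 32.2%), with 31 of 241 regions up (12.9%, background 23.6%), 10 down (4.86% for all regions) and a median of 0.29. By role in 10A, a rising region was found for all 9 genes of the proteases that cut the receptor and of their subunits, all 8 genes of the nuclear complex, 12 of 13 corepressors, 12 of 14 genes of trafficking or turnover, 3 of 4 glycosyltransferases, 3 of 4 other ligands and 2 of 5 other HES or HEY factors. In DCIS the counts were 2 of 9, 3 of 8, 5 of 13, 7 of 13, 0 of 4, 0 of 2 and 2 of 6. NOTCH4 had no region.

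In both lines, 17 of the 53 genes with a region in each had a lead region (the overlapping region of lowest FDR, or a flanking one where none overlapped) past the threshold (32.1%, against 26.3% of all genes with a region in both lines). In the nuclear complex they included the coactivators MAML1 (1.13 in 10A, 1.40 in DCIS), MAML2 (1.82 and 1.73) and MAML3 (1.46 and 1.78), each at a different place in the 2 lines. The acetyltransferase gene KAT2B is the exception in direction: it rose by 0.87 in 10A (FDR 0.0233) just upstream of its start site, and in DCIS an intronic region 14.455 kb into the gene fell, with -1.22 (FDR 0.0430, 2 of 6 windows down).

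Among corepressors, which hold RBPJ targets silent without Notch, lead regions of SPEN, NCOR1, CTBP2 and HDAC1 rose in both lines. For each of these genes the lead region lay at a different place in 10A and in DCIS. That of NCOR1 began 185.734 kb after the start site in 10A and 23.734 kb after it in DCIS. With 10A first, SPEN, the scaffold of the RBPJ corepressor complex, had 1.14 and 2.31, NCOR1 had 1.45 and 2.05, CTBP2 had 1.58 and 1.31, and the histone deacetylase gene HDAC1 had 0.91 and 1.63. Of the 18 CTBP2 regions in DCIS, 2 rose and 1 fell.

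ADAM10, which makes the first cut of the ligand-bound receptor, had 1.18 at its start site in 10A and 2.32 in an intron in DCIS (FDR 3.36e-06, 14 of 14 windows up). Of the genes of receptor turnover, the ubiquitin ligase gene ITCH had 1.28 and 2.06 (10A first), and NUMBL, a relative of the Notch antagonist NUMB, had 0.94 and 2.31. The Deltex-type ligase genes DTX2 and DTX3L had 1.02 and 1.87, and 0.82 and 2.02. The Dishevelled genes DVL1 and DVL2 had 1.06 and 1.43, and 0.82 and 1.97. HES7, the oscillating repressor of somite formation, had 1.02 and 1.25. LFNG, which adds sugars that tune the receptor's choice of ligand, rose by 1.80 in 10A downstream of the gene (chr7:2528901-2531500). The DCIS region inside that place had 1.17 and did not pass (FDR 0.0960, 3 of 15 windows up). The DCIS lead region lay elsewhere, over the gene, with -0.74 (FDR 0.554), where 10A had 0.71 (FDR 0.0518). Another DCIS region flanking the gene downstream (chr7:2534701-2535300) fell, with -2.11 (FDR 0.00232, 5 of 5 windows down). The lead regions usually lay at different places in the 2 lines, and genes with many regions have more chances to hold a rising one.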

How the data were processed

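H3K27ac and input libraries were grouped by their labels. Per the labels and the study's methods, the authors aligned reads to GRCh38 with BWA, removed duplicates with SAMtools and tested windows with csaw (settings not given in the sources used here), which gave 6 region tables: the direct comparison of both knockdown arms for 10A and for DCIS, and every immunoprecipitated group relative to input. The deposited log2 fold change is that of 1 representative window, the deposited p-value and FDR are per region over a table, and the deposited window counts count tested windows, not reads. These columns are the authors' own comparisons and are printed as such, because the tables hold nothing else for these genes; depth and replicate spread are therefore unknown.

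Members were matched by symbol in the overlap and both flank columns. A region was called at FDR under 0.05 in its deposited direction. Over input this cut removed almost nothing: 15480 of 15482 regions passed it in DCIS shCTRL, and all did in the other groups. The largest FDR was 3.92e-08 in 10A shCTRL, 1.46e-08 in 10A shANCO1 and 1.24e-08 in DCIS shANCO1. The over-input regions had thus been selected beforehand by a rule not given here, and a place without one was not shown to lack the mark. Distances were taken from the start site of the main transcript in GENCODE release 44, and regions of different tables shared a place when they overlapped by at least 1 bp. All 10 members were named; of the other Notch genes, those whose lead region passed in both lines, and the 5 largest lead changes per line. A gene that meets this rule and a cell type marker are not reported here. Members and lists were chosen with earlier results of these data known. Counting was tested on simulated tables (Python 3.11.15, pandas 2.3.3). Alternative thresholds, sizes, window counts, naming and centring were tried.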

Additional observations from a re-analysis of the deposited data

How the results depend on the processing

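No paired analysis was possible because the tables hold no value per library; for the same reason no replicate could be left out in turn, and the replicate block was not run. Of 85 alternatives, 65 left the result on its side or within 1.5 times its count. Some of these could not have moved. A count of 0 falling regions stays 0 under a stricter setting, and for several members the region nearest the start site was the lead region itself. Rising member regions in 10A went from 9 to 4 at FDR under 0.01 and to 0 when at least 1 log2 unit from the table median was also required. In DCIS they went from 2 to 1 at FDR under 0.01, to 6 at FDR under 0.1, to 1 with a size of 1 log2 unit or more, to 0 with the distance from the median, and to 1 with overlapping regions alone. For the other Notch genes, the 120 rising regions in 10A became 66 (FDR under 0.01), 62 (log2 fold change of at least 1) and 4 (distance from the median), the 0 falling ones became 1 at FDR under 0.1, and the 31 rising in DCIS became 20 at FDR under 0.01 and 20 with at least 5 windows. Taking the region nearest the start site in place of the one of lowest FDR, the DCIS members past the threshold went from 1 to 0, NOTCH1 in DCIS from 1.47 to -0.61 (FDR 0.741) and HES1 in 10A from 1.19 to 0.71 (FDR 0.245), each a different region by construction. Enriched member regions of at least 5 windows numbered 5 of 16 in 10A shANCO1, 5 of 10 in DCIS shCTRL and 6 of 11 in DCIS shANCO1, and 4 of 10 in DCIS shCTRL had an FDR under 1e-10. The stricter settings keep fewer regions by construction.

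H3K27ac does not measure RNA or protein of the pathway, the ANCO1 knockdown itself is not measured by these tables, and reads of neighbouring genes cannot be assigned to one of them.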
